A study of Mus musculus with 7 samples.

Results

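Keratin genes and the genes of keratin-associated proteins were followed in a map of H3K4me1, a methylated form of histone H3 typical of enhancers, from single mouse zygotes. A member was any RefSeq protein-coding gene of GRCm38 whose symbol is Krt followed by a number, or begins with Krtap. Members were thus chosen by name and not by a measured value, but the families were picked for description with their levels in this same pool known, so the levels below describe the pool and test nothing. This gave 109 members among 20665 autosomal protein-coding genes. They fell into 27 genes of the type I keratin cluster on chromosome 11, 26 of the type II cluster on chromosome 15, 23 Krtap genes on chromosome 11, 24 Krtap genes on chromosome 16, and 9 other Krtap genes, of which 5 lie on chromosome 7, 3 on chromosome 10 and 1 on chromosome 1. Krt18, a type I keratin by sequence, lies in the chromosome 15 cluster beside Krt8 and was counted there.

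The series profiled mouse zygotes, fertilised eggs of 1 cell, with a method that reads a histone mark by CUT&Tag and the transcriptome of the same cell. CUT&Tag brings the Tn5 transposase to a mark through an antibody, here one against H3K4me1, and the fragments it releases are sequenced. Females had received 5 IU of PMSG and, 46 to 48 h afterwards, 5 IU of hCG, and zygotes were collected 23 post-hCG, a number the labels give without a unit, after cumulus cells were taken off with hyaluronidase and the zona with Pronase. The 7 samples of the series include 2 H3K4me1 batches, each from the zygotes of 1 mouse, whose fragments were deposited as a single table; the sources used here do not state the strain and age of these mice, and there was no second group, treatment or control without antibody among the fragments analysed here.

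Keratins form the intermediate filaments of epithelial cells. A filament needs a type I and a type II keratin, which pair to a heteropolymer, and each epithelium uses its own pairs: Krt8 with Krt18 in simple epithelia and in the trophectoderm of the blastocyst, Krt5 with Krt14 in basal epidermis, Krt1 with Krt10 above it, Krt4 with Krt13 in the mouth and oesophagus, and the hair keratins in the hair shaft. Keratin-associated proteins are small proteins, many rich in cysteine and others in glycine and tyrosine, that embed the hair keratins in the hair shaft. Their genes are short and are arranged in arrays.

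All values come from 1 pool. Of 16 libraries, each 1 zygote, 14 were pooled because they reached 5000 fragments over the chromosomes 1 to 19, X and Y, 3 with the number 4 in their name and 11 with the number 5, which the labels tie to no batch. They held 1404305 fragments, from 7106 in library 5-11, the one nearest above the threshold, to 197312 in library 5-4, and the nearest library below it, 4-1, had 672. The level of a gene is the number of fragments per bp over the gene and 2.5 kb on each side, divided by the mean per bp of the autosomes, so that 1 is the autosomal mean, which was 5.62 fragments per 10 kb. Levels are per length and can be set beside each other. Ranges in parentheses are exact 95% Poisson intervals. They cover counting error only, since amplified fragments are not independent molecules, and as there is no replicate sample no test was made. The RNA of the zygotes was not analysed here, and a level of the mark is not a level of expression. Among 9 listed genes of the egg itself the median level was 1.41, and among 10 genes of cumulus and granulosa cells it was 0.931. Over all autosomal protein-coding genes it was 1.21. The egg list ran from 0.933 for Oosp1 to 2.63 for Padi6, with Zp3 next below Padi6. The cumulus and granulosa list ran from 0.257 for Areg to 2.63 for Amh, with Inha next below Amh. The ranges of these lists overlap, and from which cells the fragments came was not tested.

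Sequences just before the start of transcription differed between keratin and Krtap genes, and 6 are shown because their genes recur below: the pair Krt8 and Krt18, the highest type I keratin Krt13, the type II hair keratin Krt84, the highest Krtap gene of chromosome 11, and a Krtap gene of chromosome 16 without any fragment. Each is the 120 bases up to the base before the start, 5′ to 3′ on the gene's strand, from RefSeq for GRCm38.p6, and capitals mark the word TATAAA, the word CATAAA or the word TATATA where it lies 45 to 16 bases before the start.
Krt8: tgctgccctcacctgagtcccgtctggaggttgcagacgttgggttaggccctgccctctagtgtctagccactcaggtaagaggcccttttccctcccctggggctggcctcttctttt
Krt18: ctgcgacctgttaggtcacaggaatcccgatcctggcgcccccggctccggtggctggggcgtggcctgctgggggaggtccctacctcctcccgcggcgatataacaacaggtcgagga
Krt13: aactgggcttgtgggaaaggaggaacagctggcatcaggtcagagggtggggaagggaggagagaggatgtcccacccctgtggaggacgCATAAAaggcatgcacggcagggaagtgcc
Krt84: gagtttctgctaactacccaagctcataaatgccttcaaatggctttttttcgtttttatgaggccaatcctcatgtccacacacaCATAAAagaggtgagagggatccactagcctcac
Krtap4-6: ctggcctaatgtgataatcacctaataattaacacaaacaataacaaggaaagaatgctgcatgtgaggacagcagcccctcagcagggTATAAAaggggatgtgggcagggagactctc
Krtap14: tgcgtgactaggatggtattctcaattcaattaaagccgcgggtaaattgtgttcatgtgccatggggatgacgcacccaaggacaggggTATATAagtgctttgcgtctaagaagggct
The 6 stretches lie at chr15:102004343-102004462 on the minus strand for Krt8, chr15:102028096-102028215 on the plus strand for Krt18, chr11:100121567-100121686 on the minus strand for Krt13, chr15:101532821-101532940 on the minus strand for Krt84, chr11:99665961-99666080 on the minus strand for Krtap4-6 and chr16:88826146-88826265 on the minus strand for Krtap14. None of the 3 words stands at that place in Krt8 or Krt18.

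Promoter sequences were found for 87 of the 109 members, 36 keratins and 51 Krtap genes. TATAAA, the core of the TATA box that positions the start of transcription, stood on the gene's strand 45 to 16 bases before the start in 32 of 51 Krtap promoters (62.7%, Clopper-Pearson 95% interval 48.1 to 75.9%) and in 13 of 36 keratin promoters (36.1%, 20.8 to 53.8%). Over 16457 promoters of autosomal protein-coding genes the share was 3.06%. CATAAA stood there in 4 of 36 keratin promoters and in 0 of 51 Krtap promoters, where 3 would have been 5.88%, against 0.832% of all promoters. TATATA, which can overlap TATAAA, stood there in 6 of 36 and 11 of 51, against 1.40% of all. The word TGACTCA, bound by AP-1 factors, was searched on both strands of the 250 bases before the start and was found in 0 of 36 keratin and 6 of 51 Krtap promoters, against 4.00% of all promoters. The median GC content of these 250 bases was 48.0% for keratins, 40.4% for Krtap genes and 55.6% for all genes, and 13 of 51 Krtap promoters but 0 of 36 keratin promoters held no CG pair, against 7.02% of all promoters. For a count of 0 in 36, a count of 3 would have been 8.33%. Such matches describe the sequence only.

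Keratin genes stood above the autosomal mean, and Krtap genes as a whole did not. The 27 type I genes held 281 fragments and had a level of 1.58 (1.40 to 1.78) over their joined windows, and the 26 type II genes held 402 fragments and had a level of 1.89 (1.71 to 2.09). The Krtap genes of chromosome 11 had a level of 0.951 (0.743 to 1.20) from 71 fragments and those of chromosome 16 a level of 0.851 (0.654 to 1.09) from 63. The 9 other Krtap genes had a level of 1.52 (1.12 to 2.02) from 47 fragments. Without library 5-5 this last value was 1.30 with an interval from 0.912 to 1.79. The ratio of the type I to the chromosome 11 Krtap level was 1.66 (1.28 to 2.19), that of type II to chromosome 16 Krtap 2.23 (1.70 to 2.95), and that of type II to type I 1.20 (1.03 to 1.40), each with an exact interval conditional on the total count.

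**Figure D1:**
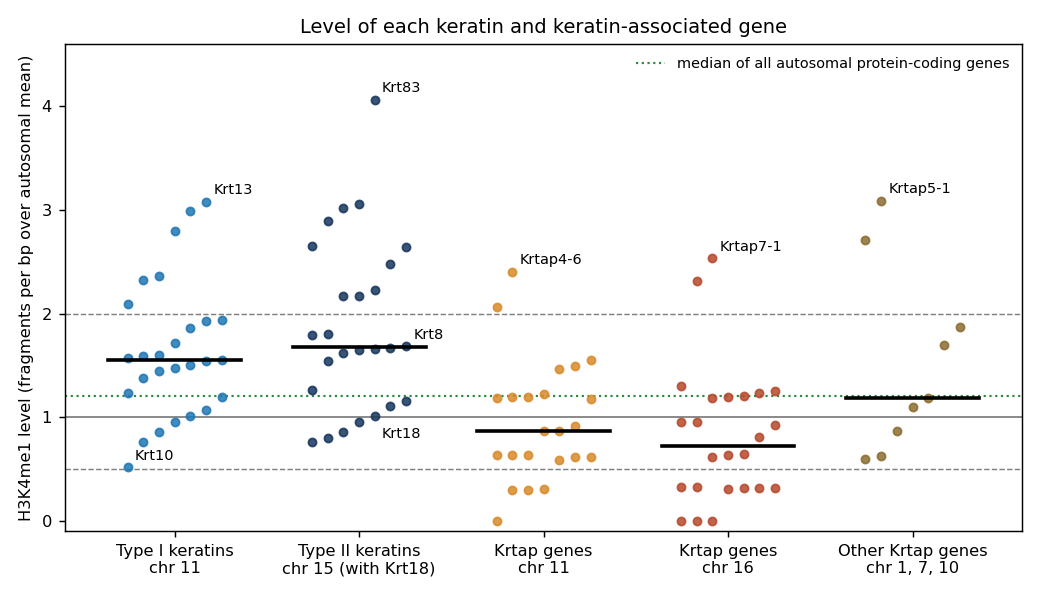
H3K4me1 level of each of the 109 genes in the 5 groups (points, spread sideways for legibility), with the group median as a black bar, the autosomal mean as a solid grey line, levels 2 and 0.5 as dashed lines and the median of all autosomal protein-coding genes as a dotted green line. Most keratins lie above the green line, with medians of 1.55 and 1.68, while the chromosome 11 and 16 Krtap genes centre on 0.871 and 0.728 and lie in steps, since each holds 0 to 8 fragments.

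The median gene level was 1.55 in the type I and 1.68 in the type II cluster, and 0.871, 0.728 and 1.19 in the Krtap genes of chromosome 11, of chromosome 16 and elsewhere, against 1.21 over all genes. A level of 2 or more was reached by 2808 of all 20665 genes, or 13.6%. It was reached by 6 of 27 type I genes (22.2%), 10 of 26 type II genes (38.5%), 2 of 23 and 2 of 24 Krtap genes of chromosomes 11 and 16, and 2 of 9 other Krtap genes. At the other end, 10.4% of all genes had a level of 0.5 or less, and so did 0 of 53 keratins, 4 of 23 Krtap genes of chromosome 11, 9 of 24 of chromosome 16 and 0 of 9 elsewhere. An interval wholly above 1 was found for 29.5% of all genes, for 20 of 53 keratins (37.7%) and for 4 of 56 Krtap genes (7.14%). No fragment was found for 3.06% of all genes, 0 of 53 keratins and 4 of 56 Krtap genes.

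Keratin and Krtap genes differ in length, which sets how many fragments a window can hold. The median gene length was 6466 bp for type I and 8032 bp for type II genes, but 951 bp and 608 bp for Krtap genes of chromosomes 11 and 16, and all 56 Krtap genes were under 2 kb. The 2291 autosomal genes under 2 kb had a median level of 0.639 and 9.47% of them reached 2, while 34% were at 0.5 or less, 15.8% had no fragment and 6.11% had an interval above 1. Among the 8798 genes of 2 to 20 kb the median was 1.33, with 19.7% at 2 or more, 10.8% at 0.5 or less, 2.41% without a fragment and 26.3% with an interval above 1. Set beside genes of their own length, Krtap genes had a median of 0.894 and 13 of 56 (23.2%) at 0.5 or less, and keratins a median of 1.62 and 16 of 53 (30.2%) at 2 or more. Olfactory receptor genes, another family of short genes in arrays, had a median of 0.597 over 1104 genes, and vomeronasal receptor genes 0.443 over 354. Their median lengths were 950 bp and 961.5 bp, so many of these low genes are part of the background under 2 kb. Krtap genes were not set beside short genes without them.

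Krt8 and Krt18, the pair that forms the first keratin filaments of the embryo, lay within the range of the other keratins. Krt8 (gene ID 16691, chromosome 15, 101996711 to 102004342) held 12 fragments and had a level of 1.69 (0.873 to 2.95). They came from 7 of 14 libraries, 4 of them from library 4-5, and ranged from 0 to 4 per library. Of the 12, 6 lay in the gene and 6 beside it, and 1 had its midpoint within 1 kb of the start. Without library 4-5 the level of Krt8 was 1.22 (0.525 to 2.39), and it was 3.95 (1.28 to 9.22) over the libraries named 4 and 1.20 (0.482 to 2.47) over the rest, ranges that overlap.

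Krt18 (gene ID 16668, chromosome 15, 102028216 to 102032026) held 5 fragments and had a level of 1.01 (0.328 to 2.36). These came from 3 libraries, 2 each from 4-4 and 5-6 and 1 from 5-2, and 0 of them lay within 1 kb of the start. Without library 4-4 its level was 0.643. The ratio of Krt8 to Krt18 was 1.67 with an interval from 0.549 to 6.07, so a difference between them was not detectable at this depth, and the 18.9 kb between their windows had a level of 1.13 (0.585 to 1.98). The next gene to Krt8 on its other side, Krt78, an epidermal keratin annotated over 50624 bp, had the most fragments of any member, 56 from 12 libraries, at a level of 1.79 (1.35 to 2.33), and its window overlaps that of Krt8. Fragments in the shared part, from 101994211 to 101999124, count for both genes, and some of those given above for Krt8 lie there. The promoter entry of Krt78 places its start at 101954287 on the minus strand, but the annotated gene runs on to 101996624. Most of its annotated length thus lies before that start, and the fragments there were not counted apart. They also enter the type II and epidermal levels.

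**Figure D2:**
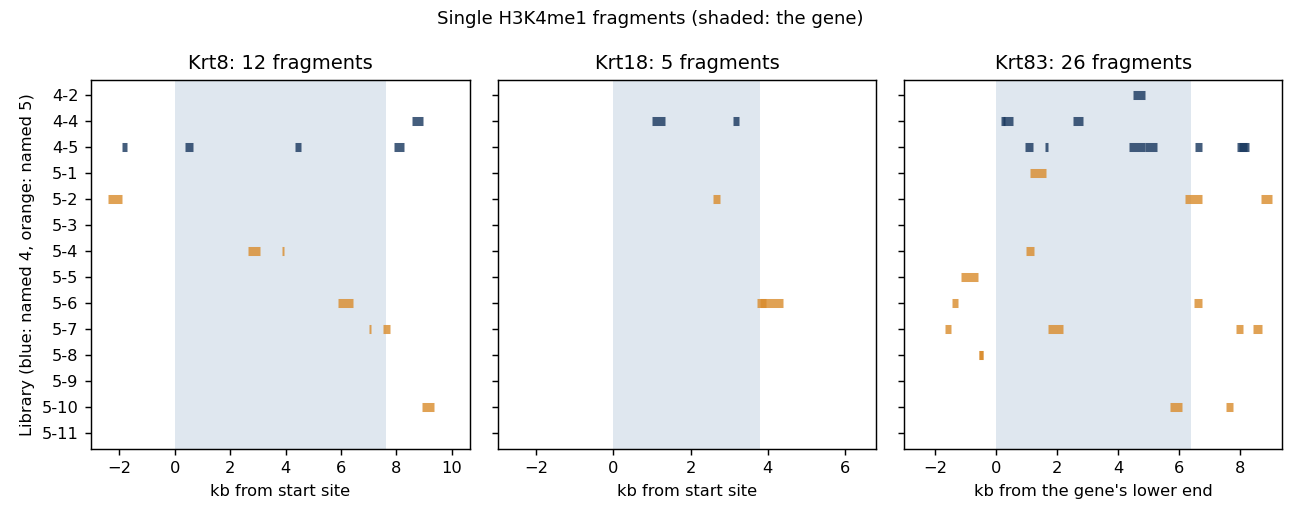
Each fragment in the windows of Krt8, Krt18 and Krt83 (bars, drawn to their length), by library from top to bottom, with the gene shaded; positions are in kb from the start of transcription or, for Krt83, from the gene's lower end. Krt8 holds 12 fragments from 7 libraries and Krt18 holds 5 from 3, with no pile-up at their starts, and Krt83 holds 26 from 11 libraries.

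The other simple epithelial keratins, which line ducts, glands and gut, all stood at or above the mean. Krt19, of ducts and other simple epithelia, had a level of 2.99 (1.74 to 4.79) from 17 fragments in 8 libraries. Krt20, of the gut lining, had 1.93 (1.10 to 3.13), Krt7, of glands and ducts, 1.66 (0.997 to 2.59), and Krt23 1.50 (0.875 to 2.40). Over the 6 genes of this list the summed level was 1.76 (1.41 to 2.18). Krt19 is the member of this list above 2, and 16 of its 17 fragments came from libraries named 5.

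Keratins of the mouth, oesophagus and cornea were the highest of the role lists by summed level, 2.31 (1.81 to 2.90) over 5 genes. The pair of the oral and oesophageal lining was high on both chromosomes: Krt13 had 3.08 (1.76 to 5.00) and Krt4 3.02 (1.82 to 4.71). Krt13 held 16 fragments from 6 libraries, all named 5, where its level was 3.75 (2.14 to 6.09). In the 3 libraries named 4 it held 0 fragments, where 3 would have given a level of 3.24 and the interval ends at 3.98. Krt4 held 19 fragments from 10 libraries, 6 of them from libraries named 4, and was above 2 in either set. Krt76, of the oral mucosa, had 2.23 (1.30 to 3.57), Krt12, of the cornea, 1.94 (1.03 to 3.32), and Krt24 1.38 (0.596 to 2.72). In this list 4 of 5 genes had an interval above 1, against 37.7% of all keratins and 29.5% of all genes. The list is small and holds members of both clusters.

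Epidermal keratins ranged from 0.517 to 2.89. The 11 genes had a summed level of 1.82 (1.58 to 2.09) and a median of 1.79. Of them 4 were at 2 or more, against 30.2% of all keratins and 13.6% of all genes. Krt79, of hair follicle openings and sebaceous ducts, had 2.89 (1.89 to 4.24) from 26 fragments in 9 libraries, and Krt80 had 2.65 (1.89 to 3.61) from 40 fragments in 13 libraries, the widest spread over libraries of any member. The basal pair stood at 1.81 (0.902 to 3.23) for Krt5 and 2.09 (1.05 to 3.75) for Krt14, and Krt15, also of basal cells, at 2.32 (1.20 to 4.06). Of the suprabasal pair, Krt1 had 1.55 (0.707 to 2.93), whereas Krt10 was the lowest keratin of all with 0.517 (0.168 to 1.21), 5 fragments from 5 libraries. The promoter entry of Krt10 places its start at 99389364 on the minus strand, while the annotated gene runs on to 99397449. Most of the annotated length of Krt10 thus lies before that start, and fragments there were not counted apart. Krt2, of the uppermost layers, had 0.805 (0.295 to 1.75), and Krt9, of palms and soles, 1.55 (0.744 to 2.85).

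Keratins induced by wounding and stress were the lowest of the role lists, at 1.18 (0.754 to 1.75) over 4 genes. Of their intervals 0 of 4 were above 1, against 37.7% of all keratins and 29.5% of all genes. Krt16 had a level of 1.59 (0.641 to 3.28) and Krt17 of 1.45 (0.626 to 2.86) in the chromosome 11 cluster. Krt6b had 0.960 (0.312 to 2.24) and Krt6a 0.759 (0.207 to 1.94) on chromosome 15. Krt6a and Krt6b are close paralogues, and the sources used here do not say how reads that match both were placed, so their values are uncertain.

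Hair shaft keratins had a summed level of 1.88 (1.61 to 2.19) over 14 genes. Of these 4 reached 2, against 30.2% of all keratins and 13.6% of all genes. Krt83, a type II hair keratin, was the highest of all 109 members at 4.06 (2.65 to 5.95). Its 26 fragments came from 11 of 14 libraries, with 7 from library 4-5, and 12 lay in the gene. Its level was 9.65 (4.82 to 17.3) over the libraries named 4 and 2.85 (1.60 to 4.71) over those named 5. Krt83 was the 1 member whose intervals in the 2 sets did not overlap, and it was above the autosomal mean in either. Over all autosomal protein-coding genes these intervals did not overlap for 2.15%, and over those of 2 to 20 kb for 0.898%, so 1 of 109 is near or under that background. Its neighbours Krt84 and Krt86 had 3.06 (1.92 to 4.63) and 2.47 (1.41 to 4.02), Krt81 on the other side of Krt86 1.65 (0.754 to 3.13), and Krt82 at the end of this run 0.862 (0.347 to 1.78).

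Among the type I hair keratins, Krt35 had 2.36 (1.22 to 4.13) and was the member of this subset above 2, while Krt31, Krt32, Krt33a, Krt34 and Krt36 lay between 1.20 and 1.72 and Krt33b stood at 0.950 (0.349 to 2.07). Krt39 had 1.86 (1.02 to 3.12) and Krt40 had 1.24 (0.535 to 2.44). Among the keratins of the inner root sheath and companion layer, the sleeves around the growing hair, the summed level was 1.55 (1.26 to 1.89) over 8 genes. Type II members led this list, with Krt71 at 2.64 (1.63 to 4.04) and Krt75 at 2.17 (1.31 to 3.39). The type I members Krt25, Krt26, Krt27 and Krt28, which lie side by side, had 0.858, 1.47, 1.01 and 1.07, each with an interval that includes 1. In no role list were Krt42, Krt90, Krt87, Krt88 and Krt222, of which Krt42 at 2.80 (1.69 to 4.37) and Krt90 at 2.17 (1.31 to 3.39) were above 2 and Krt222, at the outer edge of the cluster, had 0.760 (0.306 to 1.57).

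Levels differed by position within the chromosome 11 stretch, which runs from 99232761 to 100269951 and holds a keratin block, a Krtap block and a second keratin block. The 12 keratins of the first block, Krt222 to Krt40, lie in a stretch with a level of 1.21 (1.06 to 1.39), the Krtap block had 0.886 (0.773 to 1.01), and the 15 keratins of the last block, Krt33a to Krt42, lie in a stretch at 1.80 (1.59 to 2.03). The last block exceeded the first by a ratio of 1.48 (1.23 to 1.79) and the Krtap block by 2.03 (1.69 to 2.44). All 6 type I genes at 2 or more, Krt13, Krt14, Krt15, Krt19, Krt35 and Krt42, lay in the last block, and 0 of 12 lay in the first. Bases outside the gene windows showed the same order, with 1.11 (0.895 to 1.36) in the first block, 0.861 (0.730 to 1.01) in the Krtap block and 1.68 (1.38 to 2.02) in the last. The 200 kb before and after the whole stretch had levels of 1.60 (1.38 to 1.85) and 1.54 (1.32 to 1.79), and chromosome 11 as a whole 1.21. Scaled to the mean of its own chromosome, the type I level was 1.31 in place of 1.58. The Krtap level of chromosome 11 was then 0.787 (0.614 to 0.992) in place of 0.951. The median level of protein-coding genes on chromosome 11 was 1.41.

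**Figure D3:**
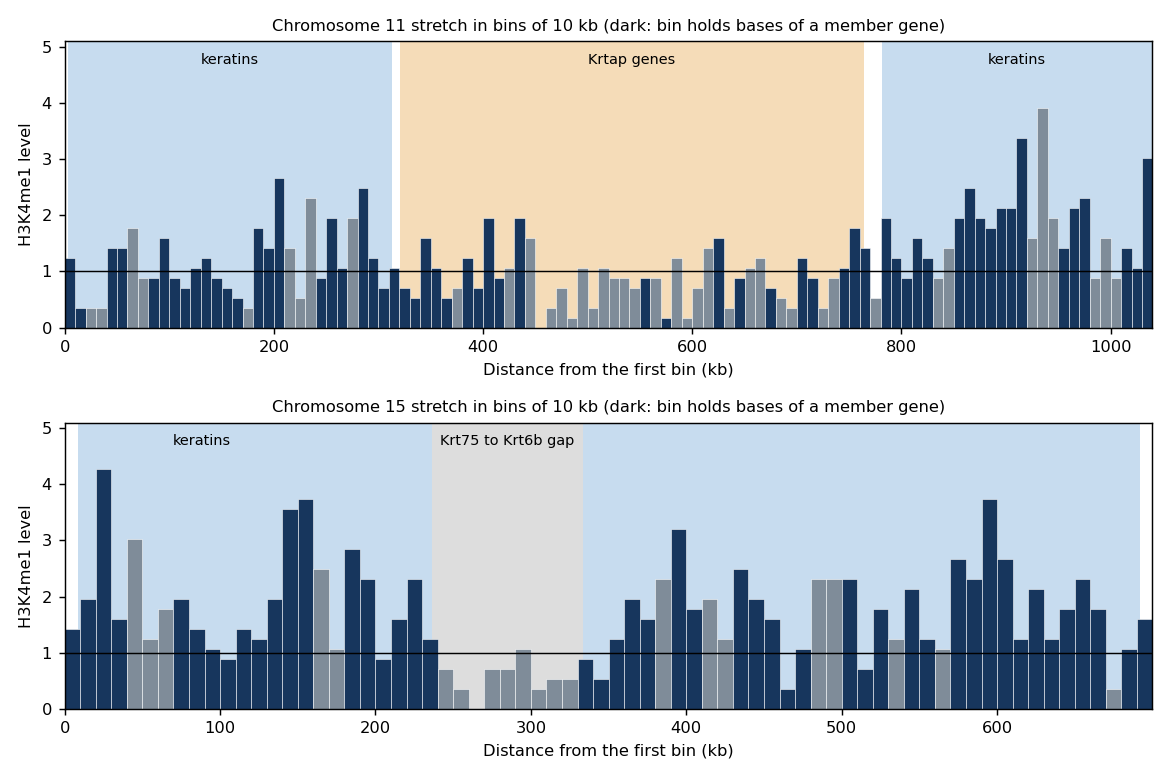
H3K4me1 level in bins of 10 kb along the chromosome 11 stretch (upper panel) and the chromosome 15 stretch (lower panel), with distance in kb from the first bin; dark bars are bins that hold bases of a member gene, grey bars are the others, and the black line is the autosomal mean. On chromosome 11 the bars fall under the line through much of the Krtap block and rise in the last keratin block, and on chromosome 15 they fall in the grey gap between Krt75 and Krt6b.

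The chromosome 15 stretch, from 101348315 to 102032026, had a level of 1.68 (1.55 to 1.81), with 1.91 (1.73 to 2.11) in the gene windows and 1.40 (1.23 to 1.59) between them, while chromosome 15 as a whole stood at 0.991. The 200 kb before the stretch were as high, at 1.75 (1.52 to 2.02), and the 200 kb after it had 1.27 (1.07 to 1.50). The median level of protein-coding genes on chromosome 15 was 1.39. The gene windows exceeded the rest of the stretch by a ratio of 1.36 (1.16 to 1.60), a rest that includes the low gap between Krt75 and Krt6b. On chromosome 11 it was 1.29 (1.11 to 1.50), with keratin and Krtap windows joined and much of the rest in the Krtap block. Windows and rest had 1.31 and 1.11 in the first block, 0.947 and 0.861 in the Krtap block, and 1.90 and 1.68 in the last. The intervals of each of these pairs overlap. High and low ground alternated on chromosome 15. Of 70 bins of 10 kb, 21 were at 2 or more and 4 were enriched, meaning a level of 3 or more from 20 or more fragments in 5 or more libraries. Over all autosomal bins of this size 7.91% were at 2 or more and 0.518% were enriched. The enriched bins held bases of Krt80, with 4.27, of Krt83, with 3.56 and 3.74 in adjacent bins, and of Krt79, with 3.74. The second Krt83 bin, from 101490001 to 101500000, lies mostly beyond the gene, which ends at 101491512. The 97.1 kb between the windows of Krt75 and Krt6b had 0.550 (0.371 to 0.785) from 30 fragments, and RefSeq lists 1 other protein-coding gene in it. Unsequenced bases and sequence that maps to several places were not measured here, so how much of this gap fragments could cover is unknown. The 3 keratins nearest its right side, Krt6b, Krt6a and Krt5, had 0.960, 0.759 and 1.81.

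Along the chromosome 11 stretch, 11 of 104 bins were at 2 or more, 13 were at 0.5 or less and 1 was enriched, where 22.1% of all autosomal bins were at 0.5 or less. That bin, from 100160001 to 100170000, lies between Krt19 and Krt9 and held bases of no member. It had a level of 3.91 (2.45 to 5.93) from 22 fragments in 9 libraries, and in RefSeq the lower end of the lncRNA gene Gm39022 lies in it. Next to the Krtap genes, the bin from 99680001 to 99690000 held 0 fragments, as did 4.05% of all autosomal bins. For such a bin 3 fragments would have given 0.534, and its interval ends at 0.656.

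The Krtap genes of chromosome 11, most of them for cysteine-rich proteins, ranged from 0 to 8 fragments with a median of 3. Krtap4-6, whose promoter is shown above, was the highest at 2.41 (1.04 to 4.74), 8 fragments from 5 libraries, and the 1 gene of this group with an interval above 1. Krtap1-5 had 2.06 (0.829 to 4.25) and Krtap16-1 1.55 (0.569 to 3.37). Krtap31-1 held no fragment, where 3 would have given a level of 0.894 and the interval ends at 1.10, and Krtap4-7 held 1, a level of 0.298 (0.00754 to 1.66). Windows of the 15 other protein-coding genes in this block, outside the Krtap windows, had 0.922 (0.670 to 1.24), close to the Krtap windows of the block at 0.947 (0.735 to 1.20).

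The Krtap genes of chromosome 16, with the glycine- and tyrosine-rich families among them, lie in a stretch of low level. From 88610709 to 89571183 it had 0.715 (0.645 to 0.790), with 0 of 97 bins of 10 kb at 2 or more and 31 at 0.5 or less. Over all autosomal bins the shares were 7.91% and 22.1%. The 200 kb on the sides of the stretch had 0.729 (0.580 to 0.905) and 0.907 (0.740 to 1.10). Chromosome 16 as a whole stood at 0.933. The gene windows had 0.828 (0.631 to 1.07) and the bases between them 0.698 (0.624 to 0.778), a ratio of 1.19 (0.884 to 1.57). Krtap7-1 was highest at 2.53 (1.09 to 4.99), with 5 of its 8 fragments from libraries named 4, followed by Krtap22-2 at 2.31 (0.931 to 4.77) and Krtap19-5 at 1.30 (0.354 to 3.32). Krtap14, Krtap19-2 and Krtap19-4 held no fragment. For these 3 genes a count of 3 would have given levels of 0.912, 0.952 and 1.01, and their intervals end at 1.12, 1.17 and 1.24. Of 24 genes, 3 had no fragment (12.5%), against 15.8% of all genes under 2 kb.

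The other Krtap genes stood higher, and so did their surroundings. Krtap5-1 on chromosome 7 had 3.09 (1.48 to 5.68) from 10 fragments in 4 libraries, and Krtap10-4 on chromosome 10 had 2.71 (1.24 to 5.15) from 9 fragments in 5 libraries, all named 5. Krtap5-3 had 1.87 (0.753 to 3.86), Krtap12-1 0.627 (0.0760 to 2.27), and Krtap28-13, alone on chromosome 1, 0.594 (0.0719 to 2.15). The whole chromosome 7 stretch had 1.38 (1.13 to 1.68) with 1.70 and 2.03 in the 200 kb on its sides, and the chromosome 10 stretch 1.78 (1.48 to 2.14) with 2.10 and 1.80 on its sides.

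Over 300 bases around the start, 15 of the 87 promoters shared at least 1 word of 36 bases with the promoter of another gene that does not overlap it, and all 15 belong to Krtap genes, 7 of 21 on chromosome 11, 5 of 23 on chromosome 16 and 3 of 7 elsewhere. The same was true of 9.87% of all 16457 promoters and of 28.4% of the 1915 promoters of genes under 2 kb. Krtap4-13 shared the most, 66.4% of its words. Krtap31-1, Krtap19-2, Krtap4-6 and Krtap5-1 are among the 15. The sources used here do not say how fragments with more than 1 possible place were handled, so values of these genes are uncertain, and the part of shared sequence in the Krtap levels was not tested. Keratins without a promoter entry, among them Krt6a, Krt6b, Krt81, Krt83 and Krt86, were not compared, so whether they share words is unknown.

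Around the start of transcription the Krtap genes stood above their own surroundings, while for keratins the interval of that ratio included 1. Within 0.6 kb of the start, 51 Krtap genes had a level of 1.42 (1.05 to 1.88) from 49 fragments, against 0.959 (0.723 to 1.25) from 2.6 to 0.6 kb before it and 0.820 (0.602 to 1.09) from 0.6 to 2.6 kb after it. The centre over both sides gave a ratio of 1.60 (1.11 to 2.27). It was 1.16 (0.613 to 2.09) on chromosome 11 and 1.92 (1.03 to 3.48) on chromosome 16, 1.23 (0.436 to 3.05) over the libraries named 4 and 1.69 (1.14 to 2.47) over the rest, and between 1.43 and 1.72 with any 1 library left out. For 36 keratins the ratio was 1.09 (0.745 to 1.57), for all 16457 genes with a promoter 0.994 (0.975 to 1.01), and for the 1915 genes under 2 kb 1.18 (1.10 to 1.26), so the Krtap interval includes the value of short genes as a whole. In steps of 0.4 kb, the step centred 2.8 kb before the start had 1.74 (1.07 to 2.69), above the 1.57 (0.930 to 2.48) at the start itself. These window widths were chosen after the data were seen.

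**Figure D4:**
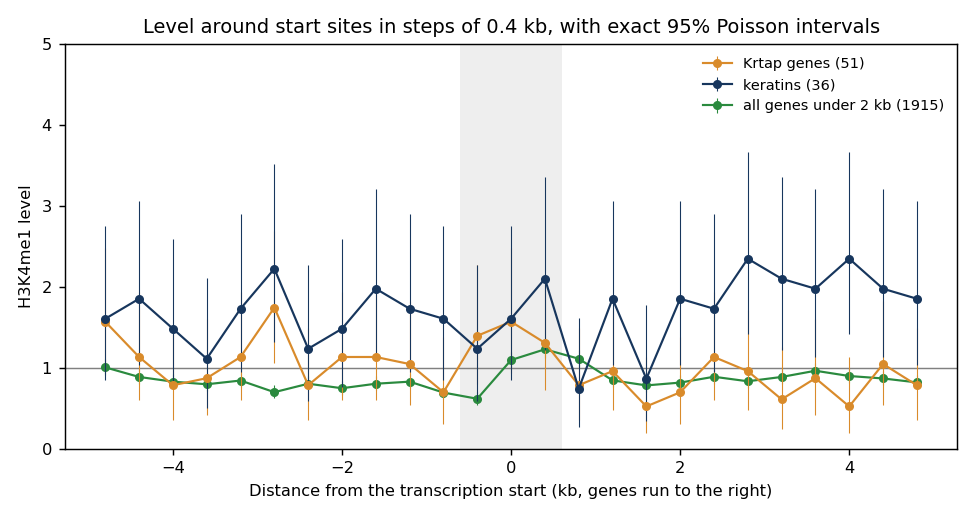
H3K4me1 level in steps of 0.4 kb around the start of transcription for 51 Krtap genes, 36 keratins and the 1915 autosomal genes under 2 kb with a promoter entry, with exact 95% Poisson intervals as bars; genes run to the right and the grey band marks 0.6 kb on each side of the start. Krtap genes stand at 1.31 to 1.57 in the 3 steps of the band and at 1.74 in the step centred at -2.8 kb, while keratins lie above them at most distances.

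Inside against beside the gene, the type I keratins had 1.76 (1.51 to 2.03) in the gene and 1.33 (1.08 to 1.63) in the 2.5 kb on each side, a ratio of 1.32 (1.02 to 1.70). For type II keratins the values were 1.98 (1.76 to 2.22) and 1.70 (1.39 to 2.04), a ratio of 1.17 (0.935 to 1.47). The Krtap genes of chromosome 11 held 17 fragments in the genes, a level of 1.39 (0.810 to 2.23), and 54 beside them, a level of 0.865 (0.650 to 1.13), with a ratio of 1.61 (0.873 to 2.82). The ratio was 1.33 (0.603 to 2.64) for the Krtap genes of chromosome 16 and, in the other direction, 0.793 (0.300 to 1.79) for the other Krtap genes. Fragment lengths of the members were close to those of all fragments: the median was 327 bp over their 864 fragments and 322 bp over all autosomal fragments.

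The order of keratins above Krtap genes held in each library deep enough to look at. In the pool, joined windows of all autosomal genes of 2 to 20 kb also stood above those of genes under 2 kb, at 1.38 against 0.889. Whether such genes show the same order by library was not tested. In the 13 libraries above 20000 fragments the keratin level had a median of 1.78 and lay between 0.925, in library 5-9, and 2.25, in library 4-5. The Krtap level had a median of 0.951 and lay between 0.365, again in library 5-9, and 1.41, in library 5-5. Keratins were higher than Krtap genes in 13 of 13 libraries, although the intervals overlap in most of them, and the keratin interval was above 1 in 12 of 13, the exception being library 5-9. Type I genes were higher than the Krtap genes of the same chromosome in 10 of 13 and type II higher than type I in 8 of 13. Over the libraries named 4 the type II level was 2.48 (2.01 to 3.04), and over those named 5 it was 1.77 (1.57 to 1.97), while the type I levels were 1.45 (1.06 to 1.94) and 1.61 (1.41 to 1.83). What the numbers in the names stand for is not stated in the labels.

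**Figure D5:**
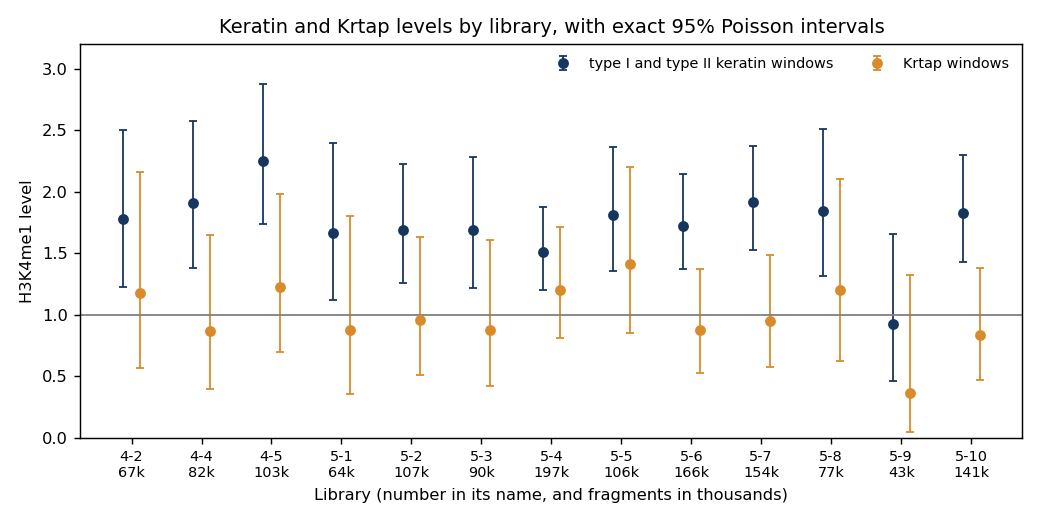
H3K4me1 level over all keratin windows (blue) and all Krtap windows (orange) in each of the 13 libraries above 20000 fragments, with exact 95% Poisson intervals as bars; the depth, rounded, is under each name. The keratin point is above the Krtap point in 13 of 13 libraries, and library 5-9, the shallowest shown, is lowest in both.

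Single members rest on few libraries. A type I gene had fragments from 4 to 11 libraries with a median of 6, a type II gene from 3 to 13 with a median of 8, and a Krtap gene of chromosome 11 or 16 from 0 to 5. Of the 22 members at 2 or more, 12 stayed there whichever library was left out: 11 of 16 keratins, among them Krt4, Krt13, Krt79, Krt80, Krt83, Krt84 and Krt86, and Krtap5-1 of the 6 Krtap genes. Krt14, Krt15, Krt19, Krt75 and Krt76 fell under 2 without 1 library.

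Listed genes that work with keratins, and genes of other intermediate filaments, had lower medians than the keratins at 1.62. They were also longer, with median lengths of 10256 to 28922 bp per list against 7070 bp for keratins. Genes of like length were not set beside them. The 15 listed partners, the desmosome and linker proteins that anchor keratin filaments, had a median of 1.20. Of them 3 were at 2 or more, as were 13.6% of all autosomal protein-coding genes. The highest were Pkp3, a plakophilin of desmosomes, at 3.40 (2.34 to 4.77), and Eppk1, the keratin-binding epiplakin, at 2.93 (2.08 to 4.00), and the lowest was Tchh, trichohyalin of the inner root sheath, at 0.303 (0.0367 to 1.09). The 15 genes of the cornified envelope, the shell of dead epidermal cells, had a median of 0.940 with 0 at 2 or more, from Tgm3, a transglutaminase, at 1.87 (1.46 to 2.36) and Sprr1a at 1.80 (0.723 to 3.70) to Flg, filaggrin, at 0.354 (0.115 to 0.826). For 20 transcription factors of epithelium and hair the median was 1.25, with Grhl3 at 3.15 (2.43 to 4.01), Tfap2c at 2.58 (1.68 to 3.78) and Sox9 at 0.337 (0.0409 to 1.22). The 16 other intermediate filament genes had a median of 1.33, with Gfap of astrocytes at 2.63 (1.65 to 3.99), Ina of neurons at 1.93 (1.13 to 3.10) and Vim, vimentin of mesenchyme, at 0.658 (0.214 to 1.54).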

How the data were processed

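H3K4me1 CUT&Tag fragments of single zygotes were analysed. The authors deposited 1 table with a line per fragment (start, end, library) and a count, which was 1 in all 1424363 lines. Per the submitters' processing notes the build was mm10; the aligner, duplicate removal, filters and Tn5 shift were not given in the sources used here. These steps set which fragments exist, above all in repeated sequence. Both batches were pooled in that table, so it was treated as 1 sample with no test and no p-value.

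Fragments were placed by their midpoint in gene windows from RefSeq GRCm38.p6, with Python 3.11.15, numpy 2.4.6, pandas 2.3.3 and scipy 1.17.1. Chromosome lengths ran from the first to the last fragment. Joined windows count an overlap once. The counting was tested on simulated fragments. Intervals are at 95%, and beside a count of 0 the value that 3 would have given is printed. Shares over all 10 kb bins include unsequenced bases. A share of promoters holding a word comes from the RefSeq promoter table of the same build, 250 bases before to 50 after the start. Some Krtap-like genes under other symbols were not members.

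Members and lists were chosen with earlier results of these data known. Named by rule were Krt8 and Krt18, the 3 highest and 2 lowest genes of each group with at least 3 expected fragments, genes without fragments, and the 2 highest and the lowest gene of each list; further members were named after their values were seen, by their role or position.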

Additional observations from a re-analysis of the deposited data

How the results depend on the processing

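No paired analysis was possible because the table pools both batches and gives no test. Under 12 other settings for windows, placement, scaling and libraries, and without Krt222 and shared windows or without Krt8 and Krt18, 81 of 86 values of the 5 groups, Krt8 and Krt18 stayed within the interval of the reported value. The exceptions were the type I level scaled to its own chromosome, 1.31; the type II and Krt8 levels in libraries named 4, 2.48 and 3.95; the chromosome 11 Krtap level over genes only, 1.39; and the other Krtap level with 1 kb on each side, 2.10. Over genes only, 36 members reached 2 and 33 were at 0.5 or less, in place of 22 and 13, and in libraries named 4 38 were at 0.5 or less; the cause was not tested. Leaving out each of 14 libraries gave levels of 1.53 to 1.64 for type I, 1.79 to 1.95 for type II, 0.899 to 1.02 for Krtap genes of chromosome 11, 0.803 to 0.895 for those of chromosome 16, 1.30 to 1.61 for the other Krtap genes, 1.22 to 1.83 for Krt8 and 0.643 to 1.17 for Krt18, with 20 to 24 members at 2 or more and 13 to 17 at 0.5 or less. Of the 54 other named genes, 37 were at 2 or more, at 0.5 or less or had an interval off 1, and 7 of their 962 values under these settings crossed the mean: in libraries named 4, Krt13 (0), Krt19 (0.987), Krt20 (0.676) and Krtap10-4 (0); over genes only, Krtap22-2 (0) and Krtap5-1 (0); and with 5 kb on each side, Krtap4-7 (1.62). Of the 442 values of the other 17 named genes, whose reported levels were close to the mean for their counts, 27 crossed it. Depth limits single Krtap genes, each with about 3 expected fragments. Most settings reuse the same fragments, and the intervals of Krt8 and Krt18 are wide, so staying within them is a weak check. Krt18 did so at 2.27 in libraries named 4 and at 0.737 in those named 5.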
